A study of Mus musculus with 9 samples.

Results

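Epididymosomes are small membrane vesicles that the epididymal epithelium releases into the lumen, where they meet maturing spermatozoa. The levels of 4 of their miRNAs, miR-31-5p, miR-138-5p, miR-671-3p and miR-879-5p, are described here out of the 358 miRNAs reported as detected by small RNA sequencing. These 4 were chosen with the values in view, as miRNAs high in the caput, so their comparisons with the caput are given as descriptions with no test. Vesicles were isolated from the caput, corpus or cauda, in the order of sperm transit, of inbred Swiss male mice aged 8 weeks, and no treatment was compared. The vasculature was rinsed beforehand, and the vesicles were taken from the low-density fractions of an OptiPrep gradient of the luminal fluid. Each segment had 3 libraries, and since RNA of several mice was pooled for each of them, p-values measure the spread between pools. The question asked of these miRNAs was whether a level that was lower in the corpus stayed low in the cauda or came back.

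The answer differed among the 4 miRNAs. miR-31-5p was low in the corpus alone and rose 3.79-fold from corpus to cauda on the log2(CPM + 1) scale, to a mean of 136% of the caput level. The cauda means of the other members lay far below their caput means, at 13.1% for miR-138-5p, 17.4% for miR-671-3p and 15.0% for miR-879-5p. The name caput-enriched therefore suits the means of 3 of the 4 miRNAs, and miR-31-5p is better described as depleted in the corpus. CPM is the usual abbreviation for read counts scaled to a common library total. In bulk vesicle RNA, fewer vesicles with a miRNA and fewer copies per vesicle cannot be told apart.

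A miRNA is cut from a hairpin precursor, which yields a 5p strand from its first arm and a 3p strand from its second. One strand is usually kept in an Argonaute protein, where the seed near its 5′ end pairs with target mRNAs, and the other is usually degraded. miR-31-5p is known from epithelia such as the epidermis, and miR-138-5p from neurons, where it limits the growth of dendritic spines. The hairpin of miR-671-3p is better known for its other arm, miR-671-5p, which directs the cleavage of the circular RNA Cdr1as.

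The mature sequences from RefSeq (GRCm38.p6), which were found for all 4 members and for 299 of the 358 miRNAs under the same name, are shown 5′ to 3′ with the seed, bases 2 to 8, in capitals, because the seed sets which targets a miRNA can share with others:
miR-31-5p: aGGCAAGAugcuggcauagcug
miR-138-5p: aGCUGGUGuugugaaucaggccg
miR-671-3p: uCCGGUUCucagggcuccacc
miR-879-5p: aGAGGCUUauagcucuaagcc
miR-31-3p: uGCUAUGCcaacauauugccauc

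The seeds differed among all 5 strands, and 0 of the other miRNAs in the table with a sequence had the seed of any of them. No miRNA of a shared seed family could therefore be set beside these members. The last strand, miR-31-3p, is the second arm of the miR-31 hairpin and was the only other arm of these hairpins in the table. miR-138-1-3p, miR-138-2-3p, miR-671-5p and miR-879-3p were not among its 358 miRNAs. The study counted a miRNA as detected only from an average of 10 CPM on, so these arms may have been present below that level.

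Both arms of miR-31 come from 1 gene, Mir31, at chr4:88910557-88910662 on the minus strand (GRCm38), within an exon of a lincRNA on the same strand. Its hairpin is shown with the 5p arm and then the 3p arm in capitals, since both arms were measured:
Mir31: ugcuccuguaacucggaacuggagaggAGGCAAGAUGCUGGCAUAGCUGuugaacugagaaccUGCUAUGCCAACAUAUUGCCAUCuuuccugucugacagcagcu

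miR-138-5p comes from 2 hairpins with the same 5p arm and different 3p arms, shown in capitals because the reads of miR-138-5p could not be divided between them:
Mir138-1: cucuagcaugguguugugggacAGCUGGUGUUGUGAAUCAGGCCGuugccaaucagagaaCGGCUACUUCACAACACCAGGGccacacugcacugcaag
Mir138-2: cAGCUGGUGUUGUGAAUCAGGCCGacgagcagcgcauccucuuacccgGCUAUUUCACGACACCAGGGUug

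Mir138-1 lies at chr9:122682876-122682974 on the plus strand, within an exon of a transcribed pseudogene, and Mir138-2 at chr8:94324311-94324381 on the plus strand, within an exon of the lincRNA C78859. Mir671 lies at chr5:24592114-24592211 on the plus strand, within a coding exon of Chpf2, a gene for an enzyme of chondroitin synthesis, and also overlaps an exon of Smarcd3 on the opposite strand. Mir879 lies at chr5:9375704-9375779 on the plus strand, within an intron of a protein-coding gene. None of the 5 hairpins had another annotated hairpin within 10 kb, so that none of the members is part of a clustered transcript by this measure.

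The depth of the libraries differed by segment, and so did the most abundant miRNAs to which the CPM values are tied. The caput libraries held 8274421 to 11306605 reads on miRNAs, the corpus libraries 1548581 to 6190324 and the cauda libraries 2001086 to 5896748. Reads of miR-10a-5p plus miR-10b-5p made up 50.5% to 71.3% of a caput library, with the highest share in caput replicate 2, 50.3% to 53.2% of a corpus library and 33.2% to 34.5% of a cauda library. For this reason each member is also given after scaling by the trimmed mean of M values (TMM), which leaves out the most abundant and most changed miRNAs when libraries are put on 1 scale. Over all miRNAs tested, the median log2 fold change was 0.47 from caput to corpus, 0.18 from corpus to cauda and 0.81 from caput to cauda by library size, against -0.10, 0.08 and 0.07 with TMM scaling.

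miR-31-5p measured 70.2, 34.8 and 81.3 CPM in caput replicates 1 to 3, 22.0, 21.5 and 18.7 CPM in those of the corpus, and 111, 88.8 and 53.9 CPM in those of the cauda. The corpus libraries lay below every other library, while caput and cauda libraries overlapped. The segment means were 62.1 ± 24.3 CPM in the caput, 20.7 ± 1.76 CPM in the corpus and 84.7 ± 29.0 CPM in the cauda (SD, n = 3 each). The order by mean was thus cauda, caput and corpus, where the first 2 segments did not differ beyond the spread of their libraries.

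With TMM scaling the 3 caput libraries of miR-31-5p lay closer together, between 69.8 and 93.2, and the corpus libraries between 16.6 and 20.3 TMM-scaled CPM. The cauda mean was then 92.0% of the caput mean, so the order of caput and cauda turned with the scaling, while the corpus stood at 33.4% of the caput by library size and at 23.7% with TMM scaling. From caput to cauda the log2 fold change was 0.47 (standard error 0.45) by library size and -0.20 (standard error 0.34) with TMM scaling. When 1 caput library was left out, the cauda mean ranged from 112% to 161% of the caput mean.

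miR-138-5p measured 114, 23.8 and 124 CPM in caput replicates 1 to 3, 33.8, 17.2 and 14.9 CPM in those of the corpus, and 11.0, 11.0 and 12.4 CPM in those of the cauda. Caput replicate 2 lay below corpus replicate 1, so these segments overlapped, while every cauda library was below every caput and corpus library. The means were 87.2 ± 55.2 CPM in the caput, 21.9 ± 10.3 CPM in the corpus and 11.5 ± 0.802 CPM in the cauda (SD, n = 3 each), an order of caput, corpus and cauda.

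The overlap of miR-138-5p rested on caput replicate 2, the library with the largest share of miR-10 reads. Without this library the corpus stood at 18.5% and the cauda at 9.63% of the caput mean. With TMM scaling caput replicate 2 had 49.8 TMM-scaled CPM and corpus replicate 1 had 31.3, so that the segments no longer overlapped, and the cauda stood at 9.34% of the caput mean. The spread in the caput remained wide, with caput replicate 1 at 151 TMM-scaled CPM.

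miR-671-3p measured 19.3, 13.2 and 29.3 CPM in caput replicates 1 to 3, 3.72, 6.66 and 3.87 CPM in those of the corpus, and 3.00, 3.66 and 4.07 CPM in the cauda. Every caput library was above every other library, whereas corpus and cauda libraries overlapped. The corpus and cauda values rested on 46 and 38 reads in all, against 575 in the caput. The means were 20.6 ± 8.16 CPM in the caput, 4.75 ± 1.65 CPM in the corpus and 3.58 ± 0.541 CPM in the cauda (SD, n = 3 each).

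TMM scaling removed most of the spread of miR-671-3p in the caput, where the libraries measured 25.6, 27.6 and 25.2 TMM-scaled CPM. On this scale the corpus mean was 16.2% and the cauda mean 11.4% of the caput mean. By library size these were 23.1% and 17.4%. Of the 4 members it thus had the smallest relative spread between caput libraries after scaling.

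miR-879-5p was the least abundant member and the least even in the caput, at 9.99, 2.18 and 30.8 CPM in replicates 1 to 3. The corpus libraries measured 1.78, 0.392 and 2.58 CPM and the cauda libraries 0.999, 4.58 and 0.848 CPM. Caput replicate 2 lay below corpus replicate 3 and cauda replicate 2, so that a high level in the caput was carried by the other 2 libraries. Caput replicate 3 alone gave 66.5% of the 391 caput reads.

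The distal libraries held few reads of miR-879-5p, 16 over the corpus and 17 over the cauda. The single read of corpus replicate 2 allows 0.00992 to 2.18 CPM (exact 95% Poisson interval, which covers counting error only). Without caput replicate 3 the corpus mean was 26.0% and the cauda mean 35.2% of the caput mean, against 11.1% and 15.0% with it. With TMM scaling caput replicate 2 had 4.55 TMM-scaled CPM, above the highest distal value of 3.73 in cauda replicate 2.

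**Figure D1:**
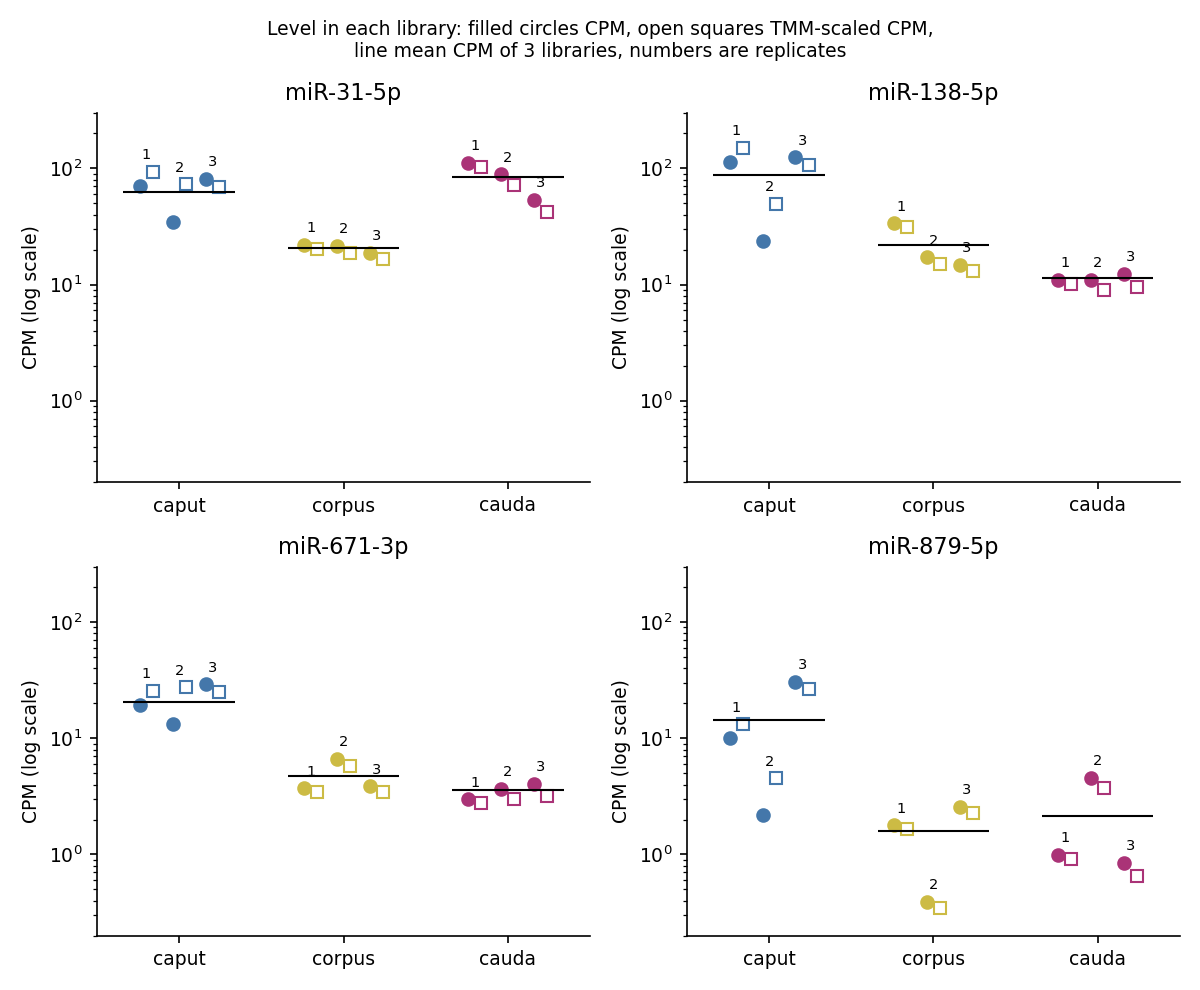
Level of each miRNA in the 9 libraries on a log axis, as CPM (filled circles) and TMM-scaled CPM (open squares), with the mean CPM of each segment as a line and the replicate numbers above the symbols. miR-31-5p is low in the corpus alone, the other 3 members are low in corpus and cauda, and the CPM of caput replicate 2 is the lowest of its segment in all 4 panels.

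The caput to corpus log2 fold changes were -1.45 (standard error 0.44) for miR-31-5p, -1.72 (0.56) for miR-138-5p, -1.88 (0.50) for miR-671-3p and -2.11 (0.76) for miR-879-5p. All 4 values were negative, as the choice of the members required. The libraries did not overlap for 2 of the 4 members, where 5.61% of the 321 miRNAs compared were lower in every corpus library than in every caput library. With TMM scaling this held for 4 of the 4 members and for 28.3% of the miRNAs, and nothing is read from these counts because the choice used this comparison.

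From caput to cauda the log2 fold changes were -2.51 (standard error 0.56) for miR-138-5p, -2.18 (0.47) for miR-671-3p and -1.92 (0.71) for miR-879-5p. Without caput replicate 3 the change of miR-879-5p was -1.11, and without caput replicate 2 that of miR-138-5p was -3.27. The cauda libraries lay below all caput libraries for 2 of the 4 members, miR-138-5p and miR-671-3p, and for 11.7% of the 349 miRNAs compared. With TMM scaling this held for 3 of the members and for 28% of the miRNAs, and here too the choice used the comparison. miR-671-3p and miR-879-5p reached the level of 10 CPM required for both comparisons through the caput alone.

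**Figure D2:**
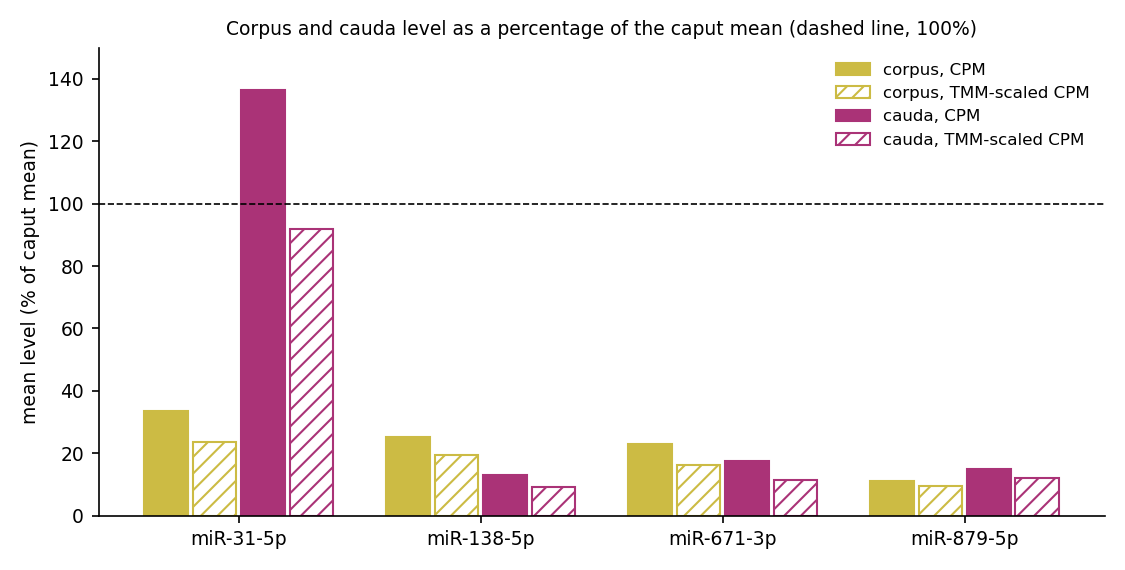
Mean level in corpus and cauda as a percentage of the caput mean for each miRNA, from CPM (filled bars) and TMM-scaled CPM (hatched bars), with the caput level as a dashed line at 100%. The cauda bars of miR-31-5p stand at 136% and 92.0%, and those of the other 3 members between 9.34% and 17.4%.

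Corpus and cauda were compared directly to tell a lasting low level from a return. This comparison is independent of the difference between the caput and the mean of the other segments. It shares the corpus libraries with the step from caput to corpus, so that a choice made on a low corpus level favours a rise afterwards. This applies to miR-31-5p, whose caput mean (62.1 CPM) lay above that of the corpus (20.7 CPM) but below that of the cauda (84.7 CPM). Its test is therefore not independent of the choice. limma was fitted to all 9 libraries, and 342 miRNAs reached a mean of 10 CPM in 1 of the 2 segments and were tested. miR-31-5p and miR-138-5p were among them, and miR-671-3p and miR-879-5p were not. A miRNA was counted as differentially accumulated where its level changed at least 2-fold with an adjusted p below 0.05, as for 65 of the 342 miRNAs (19%), or for 90 of 332 (27.1%) with TMM scaling.

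miR-31-5p rose from corpus to cauda by a log2 fold change of 1.92 (standard error 0.45, adjusted p = 0.0071 by limma with Benjamini-Hochberg adjustment). It was 1 of 48 miRNAs that rose, or 14% of those tested, so that a rise of this kind was not rare. All 3 cauda libraries were above all 3 corpus libraries, as for 30.1% of the miRNAs. Relative to the median of all tested miRNAs the change was 1.74, and 92.4% of the tested miRNAs had a lower value. When any 1 of the libraries was removed, the log2 fold change lay between 1.69 and 2.21, with adjusted p between 0.0025 and 0.0442 by the same limma test. Because the low corpus level may have entered the choice of miR-31-5p, these adjusted p-values may be too small.

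miR-138-5p showed no such return. Its log2 fold change from corpus to cauda was -0.79 (95% interval -2.00 to 0.41, adjusted p = 0.36 by limma with Benjamini-Hochberg adjustment), so the difference did not pass the test. This interval reaches up to a rise of 0.41. The value from caput to corpus, -1.72 (95% interval -2.89 to -0.54), is no fixed measure of a full return. The choice of the members used that comparison, and it shares the corpus libraries. Every cauda library was nevertheless below every corpus library, as for 16.1% of the tested miRNAs. The value moved to -0.45 without corpus replicate 1, the corpus library with the highest level of miR-138-5p.

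For miR-671-3p and miR-879-5p a fit without the filter on low values gives the size of the difference. The log2 fold change of miR-671-3p from corpus to cauda was -0.30 (95% interval -1.28 to 0.68, adjusted p = 0.72 by limma over all 358 miRNAs). That of miR-879-5p was 0.19 (95% interval -1.34 to 1.72, adjusted p = 0.87 by the same limma fit). A change was not detectable at this depth for either, and the interval of miR-879-5p still holds a rise or a fall of more than 2-fold. The sign of miR-879-5p turned when cauda replicate 2 was left out, at -0.32, and when corpus replicate 2 was left out, at -0.20.

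**Figure D3:**
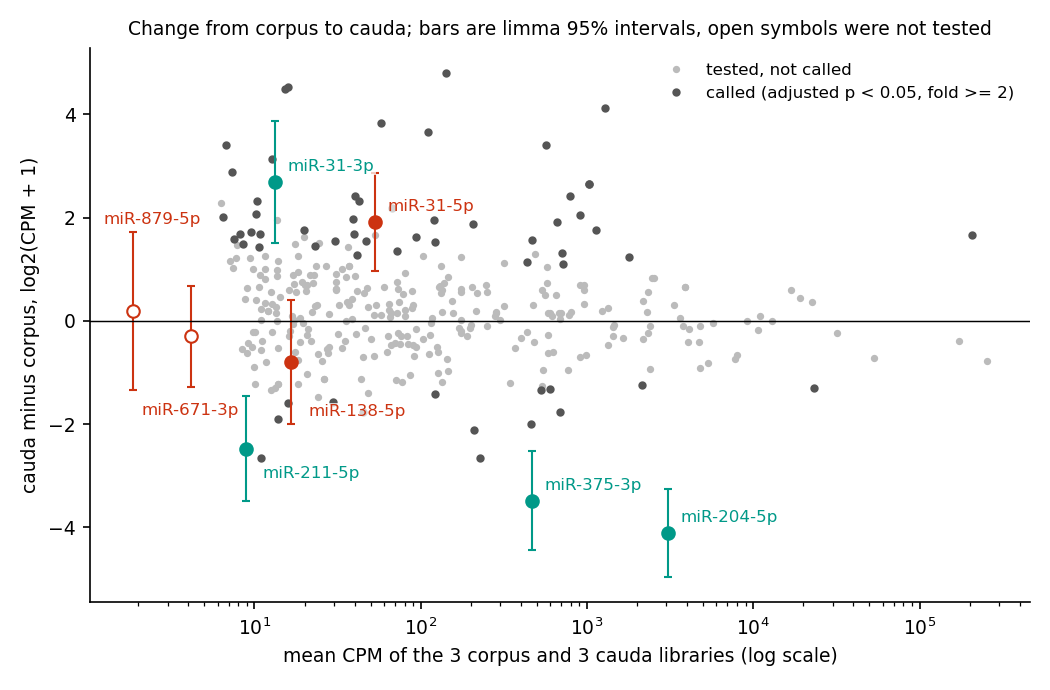
Difference between cauda and corpus on the log2(CPM + 1) scale against the mean CPM of the 6 libraries (log axis), for the 342 tested miRNAs (grey, dark where called). The 4 members are in red and miR-31-3p and 3 comparison miRNAs in green, with 95% intervals from limma; open symbols mark miRNAs below the level required for the test. miR-31-5p and miR-31-3p lie above 0, the intervals of the other 3 members cross 0, and the comparison miRNAs lie below 0.

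The members were also set against each other within each library, as log2 ratios with 1 CPM added to each miRNA, and once more with nothing added, where a ratio does not depend on library scaling. With 1 CPM added, the log2 ratio of miR-31-5p to miR-138-5p was 0.01 ± 0.52 in the corpus and 2.72 ± 0.62 in the cauda (SD, n = 3 each). The ratio to miR-671-3p was 1.95 ± 0.37 in the corpus and 4.17 ± 0.69 in the cauda (SD, n = 3 each). In both cases all cauda libraries lay above all corpus libraries, with p = 0.1, the smallest that an exact permutation test of 3 against 3 libraries can give, and 0.3 after Benjamini-Hochberg adjustment over the 6 pairs of members. The ratio to miR-879-5p overlapped between the segments and changed by 1.73 (exact permutation test, p = 0.2, adjusted p = 0.4). Among miR-138-5p, miR-671-3p and miR-879-5p the 3 ratios overlapped between corpus and cauda and changed by -0.99 to -0.49 (exact permutation test, p = 0.3 to 0.6). With nothing added, the ratio of miR-31-5p changed by 2.81 against miR-138-5p and by 2.34 against miR-671-3p, again without overlap of the libraries (exact permutation test, p = 0.1), and by 1.60 against miR-879-5p (p = 0.2). The design cannot reach p under 0.05 for any of these pairs. The low corpus level of miR-31-5p may also have entered its choice, which favours a higher ratio in the cauda. How often other pairs of miRNAs separate in this way was not computed, and nothing is concluded from the separation.

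Over the 9 libraries the 3 members with low distal levels followed each other more closely than they followed miR-31-5p. Pearson's correlation of log2(CPM + 1) was 0.87 for miR-138-5p and miR-671-3p, 0.81 for miR-138-5p and miR-879-5p and 0.76 for miR-671-3p and miR-879-5p. The values for miR-31-5p were 0.14 with miR-138-5p, 0.20 with miR-671-3p and 0.43 with miR-879-5p. With TMM scaling the latter were 0.33, 0.43 and 0.50, and those among the other 3 members lay between 0.78 and 0.90. These correlations describe 9 libraries that share depth and composition by segment, and the low level of caput replicate 2 enters all of them. The 3 members were also grouped by their levels in the same 9 libraries. Closer correlations among them follow from that grouping, and nothing further is read from them.

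The second arm of the miR-31 hairpin, miR-31-3p, was not used in the choice of members. It measured 3.54, 2.30 and 3.31 CPM in caput replicates 1 to 3, 1.29, 1.17 and 8.39 CPM in the corpus, and 15.5, 30.7 and 23.2 CPM in the cauda. All cauda libraries were above all other libraries, and corpus replicate 3 stood apart from the other corpus libraries. Among the tested miRNAs, 42.4% were higher in this way against the caput alone and 30.1% against the corpus alone. The share against both together was not counted. The corpus values rested on 8, 3 and 13 reads.

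miR-31-3p had a higher mean in the cauda than in both other segments. From corpus to cauda its log2 fold change was 2.69 (standard error 0.56, adjusted p = 0.0033 by limma with Benjamini-Hochberg adjustment), and without the filter on low values the adjusted p was 0.0035. From caput to cauda it was 2.54 (standard error 0.56, adjusted p = 0.0015 by limma), as one of the 39% of tested miRNAs that were higher in the cauda in that comparison. It was 1.97 with TMM scaling (adjusted p = 0.0080 by limma), where 24.3% of the tested miRNAs were higher. miR-31-3p was in both tested sets through its cauda level alone, and caput and corpus both had means under 10 CPM, at 3.05 ± 0.661 and 3.62 ± 4.13 CPM (SD, n = 3 each). The fit without the filter does not remove this. The study counted a miRNA as detected only from an average of 10 CPM on, and reported 358 of them. Entry of miR-31-3p thus depended on the segment found to be higher, so these adjusted p-values may be too small.

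The proportion of the 2 arms was compared within each library. The ratio of miR-31-5p to miR-31-3p reads was 19.9, 15.2 and 24.5 in caput replicates 1 to 3, 17.0, 18.3 and 2.23 in those of the corpus, and 7.19, 2.90 and 2.32 in those of the cauda. All cauda libraries were below all caput libraries in this ratio, as for 12.7% of the 79 hairpins with both arms in the table, and nothing is read from this because the caput level entered the choice. In the corpus, replicate 3 lay below all cauda libraries while the other 2 corpus libraries lay in the range of the caput. From corpus to cauda the log2 ratio, with 0.5 CPM added to each arm, changed by -0.98 (95% interval -2.39 to 0.42, adjusted p = 0.37 by limma over the 79 hairpins, of which 5.06% passed), so that a change in the ratio was not shown. Without corpus replicate 3 the change was -1.84 with an adjusted p of 0.051 by the same limma test. The ratio of the caput was not tested, because miR-31-5p had been chosen for its caput level.

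**Figure D4:**
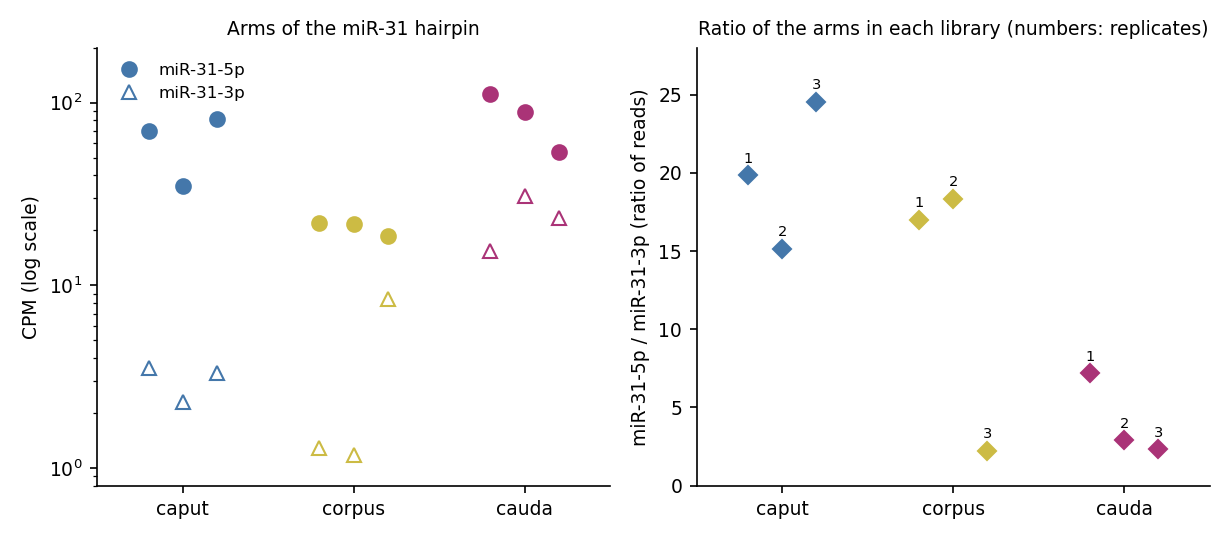
Left, CPM of miR-31-5p (filled circles) and miR-31-3p (open triangles) in the 9 libraries on a log axis; right, the ratio of miR-31-5p to miR-31-3p in each library, with replicate numbers. By CPM both arms have their highest means in the cauda (with TMM scaling miR-31-5p stands there at 92.0% of the caput), and the ratio lies between 15.2 and 24.5 in the caput and between 2.32 and 7.19 in the cauda, with corpus replicate 3 at 2.23.

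miR-204-5p, miR-211-5p and miR-375-3p, which were picked because their levels were known to fall along the tract, are set beside the members as descriptions with no test. miR-204-5p and miR-375-3p are abundant in secretory and other epithelia, and miR-211-5p has nearly the sequence of miR-204-5p. From corpus to cauda their log2 fold changes were -4.11 (standard error 0.41) for miR-204-5p, -2.47 (0.48) for miR-211-5p and -3.48 (0.45) for miR-375-3p. Over the step from caput to corpus the values were smaller in size, -1.01, -0.55 and -0.71. miR-211-5p had a mean of 10 CPM or more in caput and corpus alone. For miR-138-5p and miR-671-3p the value of larger size was that from caput to corpus, -1.72 against -0.79 and -1.88 against -0.30. The difference in timing between these miRNAs and the members was not tested.

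For each member the 3 miRNAs with the most similar profile were taken by Pearson's correlation of log2(CPM + 1) over the 9 libraries, as a description. miR-31-5p was closest to miR-125b-1-3p (0.85), miR-200b-5p (0.84) and miR-582-5p (0.83), all of which had their lowest segment mean in the corpus. miR-138-5p was closest to miR-466b-3p (0.94), miR-135a-5p (0.94) and miR-467a-5p (0.94). miR-671-3p was closest to miR-669c-5p (0.95), miR-467d-5p (0.95) and miR-92b-3p (0.94), and miR-879-5p to miR-450b-5p (0.91), miR-135a-5p (0.87) and miR-466b-3p (0.85). All of those listed for these 3 members had means that descended from caput through corpus to cauda, for example 275, 152 and 101 CPM for miR-135a-5p. The closest miRNAs depended on the measure, as only 1 of the 3 was retained for each member with Spearman's correlation. They also depended on the scaling. With TMM scaling 1 of the 3 was retained for miR-138-5p, 2 for miR-31-5p and for miR-671-3p, and 3 for miR-879-5p.

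Marker miRNAs of other cell types moved with the segments as well. Of 4 neuronal miRNAs 2 were in the table, miR-9-5p and miR-128-3p. Their sum was 167 to 333 CPM in the caput, 59.1 to 65.2 CPM in the corpus and 80.1 to 120 CPM in the cauda. From caput to corpus the log2 fold change was -2.61 for miR-9-5p and 0.13 for miR-128-3p. From caput to cauda miR-9-5p fell while miR-128-3p rose. The high neuronal sum in the caput was thus that of miR-9-5p and does not stand for both miRNAs. The 7 epithelial miRNAs of the miR-200, miR-203 and miR-205 group summed to 22103 to 33982 CPM in the caput, 74295 to 85750 CPM in the corpus and 46198 to 62745 CPM in the cauda. Most of this sum was miR-141-3p, with a mean of 41788 CPM over the caput and corpus libraries. From caput to corpus its log2 fold change was 1.88. The values were 1.20 for miR-200a-3p, 0.59 for miR-429-3p, 0.57 for miR-200c-3p, 0.12 for miR-203-3p, 0.04 for miR-205-5p and -0.67 for miR-200b-3p. The sum thus does not stand for all 7 miRNAs. The sums of smooth muscle (2 of 2 in the table, 290934 to 353014 CPM in the cauda), striated muscle (4 of 6, 1403 to 4146 CPM) and red blood cell miRNAs (4 of 5, 3019 to 4348 CPM) were higher in every cauda library than in any other library. Among the red blood cell miRNAs, the log2 fold change from corpus to cauda was 2.65 for miR-486a-5p and 2.64 for miR-486b-5p. It was 0.66 for miR-144-3p and -0.13 for miR-451a, so that their sum does not stand for all 4 miRNAs. 1 striated muscle marker, miR-208b-3p, was at 0 in a library. The 11 testis and germ cell miRNAs summed to 359 to 1049 CPM in the caput, 998 to 1171 CPM in the corpus and 2191 to 2548 CPM in the cauda. Their most abundant member over the corpus and cauda libraries was miR-34c-5p (mean 909 CPM), with a log2 fold change of 2.06 from corpus to cauda. The others lay between -0.15 for miR-871-3p and 2.32 for miR-471-5p, so that this sum does not stand for all 11. The 5 leukocyte miRNAs summed to 231 to 530, 515 to 1149 and 392 to 1601 CPM in caput, corpus and cauda. The part of these cells in the levels of the 4 members was not tested.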

How the data were processed

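The deposited values are CPM of 358 miRNAs in 9 libraries. The authors screened reads for contaminants with cutadapt and Bowtie, counted them on known mature miRNAs with miRDeep2 and scaled the counts by library size. The genome build and miRBase release are not given in the sources used here. In every library 100% of values were whole multiples, within 0.05 reads, of the value of 1 read, from which read numbers were taken.

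Segments and replicates came from the labels. The members and lists were chosen with earlier results of these data known. Tests used limma 3.58 in R 4.3 (lmFit, eBayes with trend) on log2(CPM + 1), with segment as the only factor, over miRNAs whose mean reached 10 CPM in 1 of the segments compared; fold changes on this scale understate changes at low levels. TMM factors were computed from the read numbers. Scripts were tested on simulated data. Named miRNAs were the members, the other arms of their hairpins, miRNAs with a shared seed, miR-204-5p, miR-211-5p and miR-375-3p, miR-10a-5p and miR-10b-5p, and the 3 most similar profiles. A count test had been planned as an alternative should the file hold counts. The file holds CPM, and limma-voom on the recovered reads was run in its place. Hairpins were annotated with GENCODE M21 (GRCm38). Python 3.11, scipy 1.17 and matplotlib 3.10 were used.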

Additional observations from a re-analysis of the deposited data

How the results depend on the processing

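The rise of miR-31-5p from corpus to cauda passed the test under all 19 alternatives run (log2 fold change 1.58 to 2.21, adjusted p 0.0020 to 0.0442 by limma), and the change of miR-138-5p passed under none (-1.02 to -0.45, adjusted p 0.088 to 0.72 by limma). All of these alternatives share the choice of miR-31-5p, in which its low corpus level may have had a part. With TMM scaling, alone or with the replicate block, the caput to corpus values were -2.02 for miR-31-5p and -2.40 for miR-671-3p, and the caput to cauda values -0.20 and -2.77. limma-voom on the recovered reads with TMM, added after the data were seen, gave -2.04 and -2.65, then -0.24 and -3.05, and -3.34 for miR-879-5p from caput to cauda. A pseudocount of 10 CPM gave -1.02 for miR-671-3p and -0.90 for miR-879-5p from caput to corpus, and -1.14 for miR-671-3p from caput to cauda, since it damps low levels by construction. For the shifts with TMM scaling the cause was not tested. The number of miRNAs differentially accumulated between corpus and cauda was 65, between 32 and 82 with 1 library left out (39 without corpus replicate 1, 32 without corpus replicate 2, 37 without cauda replicate 1 and 40 without cauda replicate 2), and 90 with TMM scaling. The replicate numbers are shared by the segments, and same-numbered libraries deviated together (correlation over 0.1) in 6 of 9 pairs (-0.21 to 0.41). Among pairs of different number this held for 4 of 18 (-0.45 to 0.18). A library correlated best with its own number, out of 3 libraries of another segment, in 10 of 18 cases. Some pairing of the libraries by number is thus possible, and the main fit did not use it. With the replicate block 73 miRNAs passed and the adjusted p of miR-31-5p was 0.0041 by limma. The edgeR tests planned on reads were not run, and limma-voom on the reads recovered from the deposited CPM was run in their place. Few reads limit miR-671-3p and miR-879-5p in corpus and cauda.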
